A study of Mus musculus with 6 samples.

Results

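The caspases and apoptosome genes described here are 8 genes of caspase-dependent cell death: Casp8, Casp2, Casp9, Casp6, Cycs, Apaf1, Diablo and Xiap. They were found as all probe sets whose platform gene symbol is exactly one of these names, which gave 22 of 45101 probe sets and 8 of 18193 genes. Olfactory epithelium was microdissected from male mice aged 6 months, 3 with the Harlequin genotype (Hq/Y) and 3 littermates without it (+/Y, here called controls), and each mouse had its own Affymetrix array. Harlequin is an X-linked mutation of Aifm1 (formerly Pdcd8), the gene of apoptosis-inducing factor (AIF), and is carried by every cell of a hemizygous male. In the labels the Harlequin strain is B6CBACAw-J/A-Pdcd8-Hq/J, whereas controls are given as B6CBACa, although the titles call them littermates. Any strain difference that goes with the genotype, as near Aifm1, cannot be told apart from it. The stated aim was to look for mechanisms of neurodegeneration under oxidative stress, and the comparison below asks whether RNA of the caspase route differed where AIF was reduced.

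In the mitochondrial route of apoptosis, cytochrome c leaves the mitochondria and binds Apaf-1, which assembles into the apoptosome and recruits caspase 9, and caspase 9 then activates executioner caspases. XIAP inhibits caspases, and Diablo (Smac), another protein released from mitochondria, binds XIAP and relieves that inhibition. AIF also leaves mitochondria in dying cells, but acts in the nucleus without caspases. Olfactory sensory neurons die and are replaced from basal cells throughout life, and apoptosis is a normal part of that turnover. Caspases are made as inactive precursors, so RNA levels do not measure their activity.

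No change between the genotypes was detected for any of the 8 genes. The mutated gene Aifm1 fell in the mutants, whose mean signal was 21.2% of the control mean. Mean signals of the 8 genes in Harlequin lay between 84.8% (Apaf1) and 110% (Casp2) of the control mean. Differences are given as Harlequin minus control of log2(signal + 16), at the brightest probe set of a gene unless another is named, and other probe sets were taken from a fit over single probe sets. In limma, 0 of the 8 passed an adjusted p of 0.05, where 0.0303% of the 13219 genes tested passed, and 0 had an unadjusted p under 0.05, where 4.58% of all genes did. All 8 genes passed the filter on low signal, and all 8 of the 95% intervals included 0. The median log2 difference of the 8 genes was -0.13, against 0 over all genes tested. Their median absolute log2 difference was 0.135, against 0.108 over all genes tested. With means over the probe sets above the filter the median of the 8 was -0.08, and with means over all probe sets it was -0.14. The median of the 8 moved to -0.06 without Harlequin replicate 1 and to -0.04 without control replicate 3. It moved to -0.08 without control replicate 2, the array with the lowest neutrophil signal. The part of cell composition in this was not tested.

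The arrays and the tissue were checked before the genes were compared. The mean signal of each array, without the lowest and highest 2% of probe sets, was 500, and the median probe set lay at 109.6 to 113.4 on Harlequin arrays and at 107.9 to 119.7 on control arrays. RNA integrity was read from the Actb control probe sets, whose 3' to 5' signal ratio spanned 1.35 to 1.37 in Harlequin mice and 1.36 to 1.47 in controls. Of 5 listed markers of mature olfactory sensory neurons all 5 were measured, with a summed signal of 71420 to 74230 in Harlequin and 69440 to 75530 in controls. In bulk tissue, fewer cells of a type and less RNA per cell cannot be told apart. A list of 5 neutrophil genes summed to 47190, 37830 and 29640 in Harlequin and to 26180, 12620 and 37840 in controls. Control replicate 2 was the lowest of the 6 arrays, and results that move without it are given with and without it.

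Aifm1 gave signals of 335.4, 221.1 and 211.2 in Harlequin mice, against 1239.9, 1255.6 and 1128.2 in controls. The groups lay far apart. The log2 difference was -2.20 (SE 0.18, limma adjusted p = 0.0158), and the adjusted p was 0.097, 0.0616 and 0.068 when control replicate 1, 2 or 3 was left out, which ends the call. The call also ended without an intensity trend (limma adjusted p = 0.0887) and with the replicate block (0.0605). Relative to Aifm1 on the same arrays, the log2 difference of each of the 8 genes was higher by 1.99 to 2.33. For each of the 8, the exact permutation test of that contrast (two-sided) had p = 0.1, also after adjustment over the 8 tests. That is the smallest p that 3 against 3 arrays allow. All 8 tests reuse the same Aifm1 difference of -2.20. Their outcome follows largely from it, so they do not show whether the 8 genes changed.

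**Figure D1:**
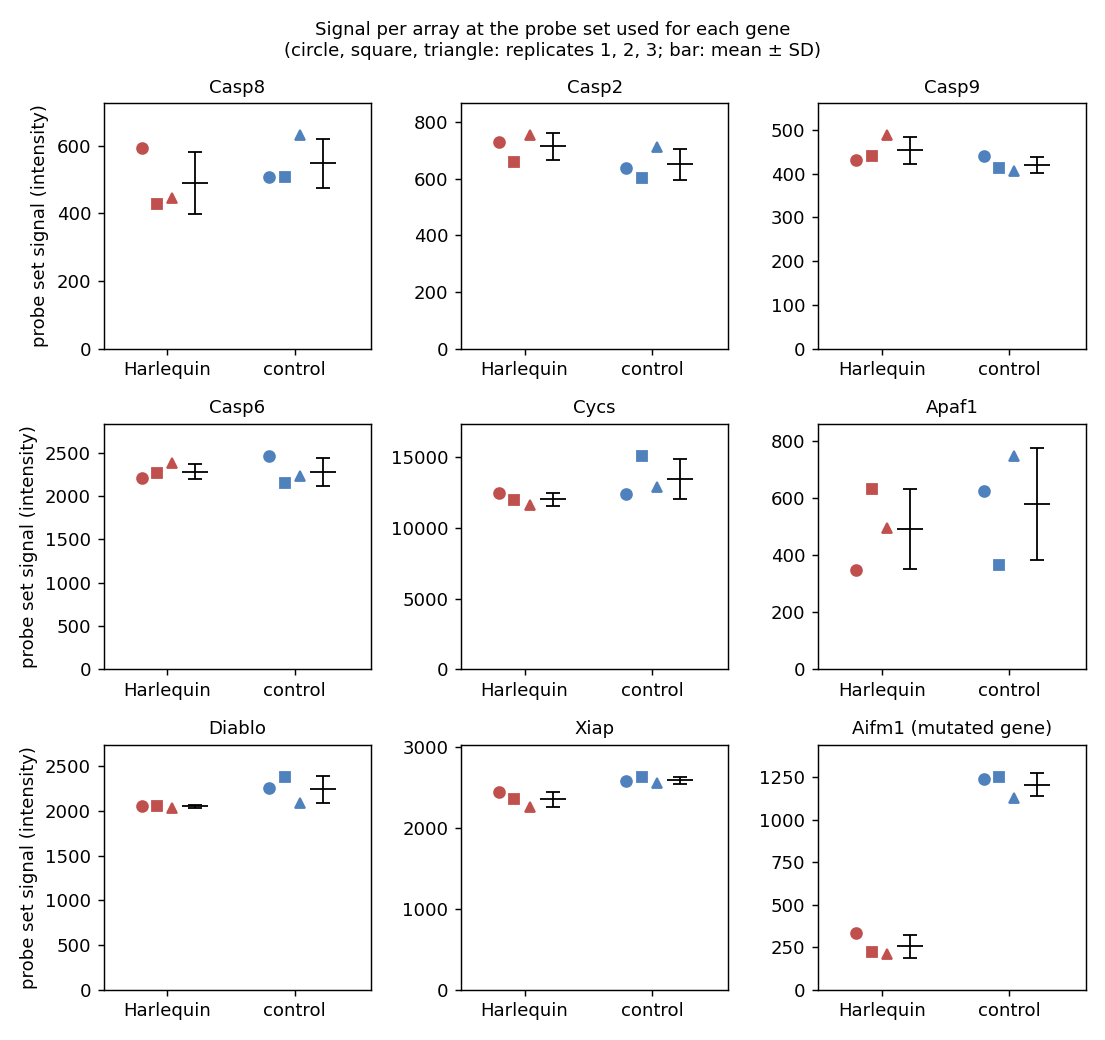
Signal of each array (intensity, linear axis from 0) at the probe set used for each gene, Harlequin in red on the left and control in blue on the right, with the mean and SD of 3 arrays as a black bar. Harlequin and control points overlap for 6 of the 8 genes, lie slightly apart for Diablo and Xiap, and lie far apart for Aifm1.

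Among the initiator caspases, Casp8 encodes the caspase that death receptors recruit at the cell surface. Its single probe set read 594.1, 429.0 and 445.4 in Harlequin and 506.4, 506.9 and 631.0 in controls. Harlequin replicate 1 lay within the control range and the other Harlequin arrays below it. The means were 489.5 ± 91.0 and 548.1 ± 71.8 (SD, n = 3 each), a log2 difference of -0.17 (SE 0.16, 95% interval -0.54 to 0.21, limma adjusted p = 0.982). Leaving out Harlequin replicate 1 gave -0.31, and leaving out control replicate 3 gave -0.06.

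Casp2 encodes an initiator caspase that is activated on a platform of the PIDD1 and CRADD proteins after DNA damage and other stress. It read 730.1, 658.8 and 752.8 in Harlequin and 637.4, 602.6 and 711.7 in controls. The highest array was a Harlequin one and the lowest a control one, but the ranges overlapped. The log2 difference was 0.13 (SE 0.12, 95% interval -0.14 to 0.40, limma adjusted p = 0.982), and 0.08 without control replicate 2. The genes of those partners differed by 0.009 (Pidd1) and 0.04 (Cradd) on the log2 scale.

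Casp9 encodes the initiator caspase of the apoptosome. At its brightest probe set it read 431.9, 439.0 and 487.3 in Harlequin and 440.8, 412.0 and 405.9 in controls. Harlequin replicate 3 was the highest array, and the other Harlequin arrays lay inside the control range. The means were 452.7 ± 30.1 and 419.6 ± 18.6 (SD, n = 3 each), a log2 difference of 0.10 (SE 0.12, 95% interval -0.17 to 0.38, limma adjusted p = 0.982), and 0.05 without Harlequin replicate 3. A second Casp9 probe set that passed the filter differed by -0.02 (95% interval -0.47 to 0.44). Another, below the filter, spanned 8.7 to 110.0 in Harlequin and 17.6 to 225.5 in controls and differed by -1.22, and with it the mean over the Casp9 probe sets was -0.38.

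Casp6 encodes an executioner caspase, which cleaves nuclear lamins and, in neurons, takes part in axon degeneration. It read 2206.5, 2261.5 and 2384.1 in Harlequin and 2464.1, 2152.4 and 2229.1 in controls. The Harlequin range lay inside the control range. The means were 2284 ± 90.9 and 2281.9 ± 162.4 (SD, n = 3 each). Its log2 difference was 0.003 (SE 0.09), and the 95% interval of the Harlequin to control ratio was 0.868 to 1.16. The log2 difference was -0.04 without control replicate 2 and 0.06 without control replicate 1. The other Casp6 probe set, close to the filter at a mean of 65.2 in Harlequin and 85.7 in controls, differed by -0.34 (95% interval -0.86 to 0.18).

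Cycs encodes somatic cytochrome c, which carries electrons in the respiratory chain and triggers apoptosome assembly once released. At its brightest probe set it read 12486.5, 11963.3 and 11624.4 in Harlequin and 12408.5, 15103.6 and 12869.2 in controls. Control replicate 2 stood above the other 5 arrays, and Harlequin replicate 1 lay above control replicate 1. The means were 12024.7 ± 434.3 and 13460.4 ± 1441.5 (SD, n = 3 each), a log2 difference of -0.16 (SE 0.09, 95% interval -0.35 to 0.04, limma adjusted p = 0.981). Among the 8 genes this was the smallest unadjusted p, 0.0977, in rank 1230 of 13219 genes. A pair of other Cycs probe sets differed by -0.05 each, and on these control replicate 2 was again the highest array, at 9041.8 and 6807.4. The remaining Cycs probe set, below the filter at a mean of 38.9 in Harlequin and 51.6 in controls, differed by -0.27. Without control replicate 2, the array with the lowest neutrophil signal, the Cycs log2 difference was -0.07, and the part of cell composition in this was not tested. The mouse genome holds processed copies of Cycs, whose transcripts these probes might also bind.

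Apaf1 encodes the scaffold of the apoptosome. It read 347.9, 629.3 and 495.6 in Harlequin and 625.5, 364.3 and 746.7 in controls. Its spread within each group was wide, with an SD of 0.42 in Harlequin and 0.52 in controls on the log2 scale, and the groups overlapped. The log2 difference was -0.21 (SE 0.29, 95% interval -0.87 to 0.45, limma adjusted p = 0.982). The other Apaf1 probe set read 150.6, 251.0 and 159.5 in Harlequin and 251.6, 140.9 and 206.2 in controls. Both probe sets put Harlequin replicate 2 and control replicates 1 and 3 highest, and Harlequin replicate 1 and control replicate 2 lowest, so the spread between mice was shared by both. Leaving out 1 array moved the Apaf1 difference from -0.50, without control replicate 2 (the array with the lowest neutrophil signal), to 0.009, without Harlequin replicate 1.

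Diablo encodes the mitochondrial protein that frees caspases from XIAP. At its brightest probe set it read 2059.7, 2060.5 and 2031.3 in Harlequin and 2254.6, 2385.5 and 2084.8 in controls. The 3 Harlequin arrays lay close together and just below the lowest control. The means were 2050.5 ± 16.6 and 2241.6 ± 150.8 (SD, n = 3 each), a log2 difference of -0.13 (SE 0.09, 95% interval -0.33 to 0.08, limma adjusted p = 0.981), and -0.08 without control replicate 2. The other Diablo probe set, a dim one, differed by 0.16 in the opposite direction (95% interval -0.35 to 0.66), and the mean over both was 0.02.

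Xiap encodes the X-linked inhibitor of apoptosis, which binds and blocks caspases. At its brightest probe set it read 2448.7, 2356.5 and 2254.0 in Harlequin and 2578.9, 2637.2 and 2555.2 in controls. All 3 Harlequin arrays lay below all 3 controls. The means were 2353.1 ± 97.4 and 2590.4 ± 42.2 (SD, n = 3 each), a log2 difference of -0.14 (SE 0.08, 95% interval -0.32 to 0.05, limma adjusted p = 0.981). For Diablo and for Xiap, p was 0.1 in an exact permutation test (two-sided), which 3 against 3 arrays cannot go below. Groups without overlap were seen for these 2 of the 8 genes, both lower in Harlequin, and for 10.4% of all genes tested (5.34% lower and 5.02% higher in Harlequin). The median over all genes tested moved by 0.03 under median scaling, where Xiap stood at -0.11 and Diablo at -0.10.

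The other 6 Xiap probe sets did not share one direction. The 2 that passed the filter differed by -0.12 (95% interval -0.65 to 0.41) and 0.04 (95% interval -0.34 to 0.41). The 4 below the filter differed by 0.11 to 0.40. One of these, at 52.1, 50.5 and 52.2 in Harlequin and 31.1, 45.1 and 45.2 in controls, lay higher in every Harlequin mouse, against the direction of the brightest probe set. The mean over all 7 Xiap probe sets was 0.12, and over the 3 above the filter it was -0.08.

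**Figure D2:**
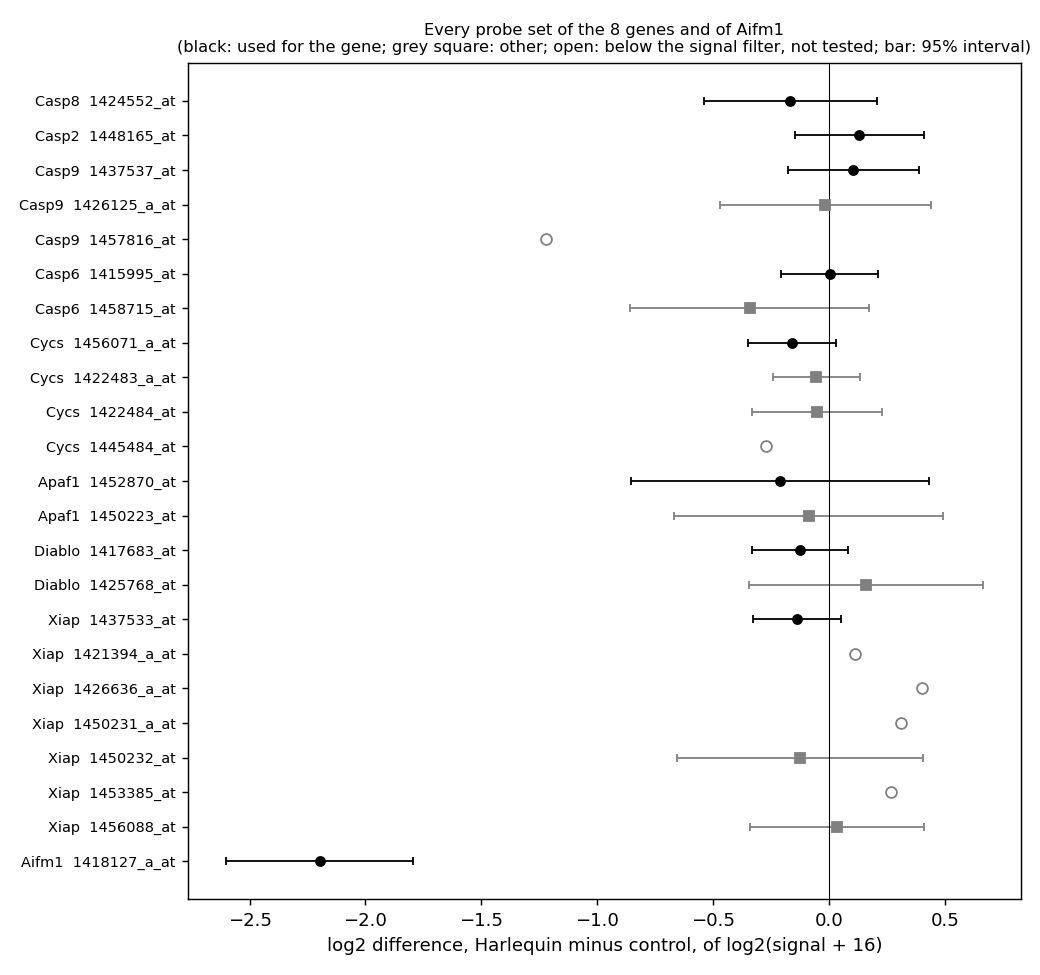
Log2 difference, Harlequin minus control, of log2(signal + 16) for each of the 22 probe sets and for Aifm1, with 95% limma intervals for the 16 that passed the signal filter. Every interval of the 16 spans 0, and Aifm1 lies alone at -2.20.

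Counted over probe sets, 16 of the 22 passed the filter and 6 did not. In the limma fit of all 27022 probe sets above the filter, 0 of the 16 passed an adjusted p of 0.05 (lowest adjusted p 0.985), against 0.0259% of all probe sets, and 0 had an unadjusted p under 0.05, against 4.7% of all. Of the 16, 5 differences were positive and 11 negative. Groups without overlap occurred at 2 of the 16, against 10% of all probe sets tested.

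The sequences upstream of Cycs, Diablo and Xiap are shown because Cycs is the link between respiration and the apoptosome, and Diablo and Xiap are the members whose groups did not overlap. In rat, the cytochrome c promoter is known to be driven by CREB and by nuclear respiratory factor 1 (NRF-1). Each sequence runs 5' to 3' from RefSeq on build GRCm38.p6, covers 250 bases before and 50 bases after an annotated gene start, and lies at chr6:50566520-50566819 on the minus strand (Cycs), chr5:123524115-123524414 on the minus strand (Diablo) and chrX:42068148-42068447 on the plus strand (Xiap, the first of 3 listed starts). Capitals mark matches on either strand to the cAMP response element TGACGTCA, to GCATGCGC, an NRF-1 type core, and to the GC box GGGCGG.
Cycs: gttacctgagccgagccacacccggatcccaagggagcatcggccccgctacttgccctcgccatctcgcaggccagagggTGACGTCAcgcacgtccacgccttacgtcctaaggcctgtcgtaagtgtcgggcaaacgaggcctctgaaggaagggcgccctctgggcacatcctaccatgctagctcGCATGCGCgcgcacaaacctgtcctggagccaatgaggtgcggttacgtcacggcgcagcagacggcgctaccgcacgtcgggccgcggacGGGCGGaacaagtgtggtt
Diablo: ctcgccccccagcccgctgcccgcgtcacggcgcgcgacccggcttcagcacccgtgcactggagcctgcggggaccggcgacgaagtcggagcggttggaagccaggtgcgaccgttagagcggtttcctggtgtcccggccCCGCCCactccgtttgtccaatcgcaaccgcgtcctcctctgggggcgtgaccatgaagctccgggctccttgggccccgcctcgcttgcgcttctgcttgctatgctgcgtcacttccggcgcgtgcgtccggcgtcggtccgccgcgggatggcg
Xiap: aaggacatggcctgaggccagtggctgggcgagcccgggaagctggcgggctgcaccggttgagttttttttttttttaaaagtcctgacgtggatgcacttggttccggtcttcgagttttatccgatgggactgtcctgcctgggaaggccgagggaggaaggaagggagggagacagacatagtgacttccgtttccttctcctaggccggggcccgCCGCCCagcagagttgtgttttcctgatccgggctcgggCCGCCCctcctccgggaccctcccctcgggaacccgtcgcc
The Cycs sequence held 1 match to each of the 3 motifs. Diablo held 1 GC box and Xiap 2, and neither held the other motifs. Over all 8 genes, with the first listed start of each, the response element was found at 1, the NRF-1 type core at 2 (Cycs and Apaf1) and the GC box at 7, all but Casp8. Among 32851 promoter windows of the same length the shares were 1.79%, 2.71% and 35.7%. Those windows include further starts of the same gene, so they are not counted as the 8 genes were. A match describes letters only, and no promoter activity was measured.

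Other genes of the caspase pathways and of the AIF route were compared as 5 lists with 39 genes besides Aifm1. Of these, 32 were tested, 3 lay below the filter and 4 were not analysed here. None of the 32 passed in limma (0 of 32 at an adjusted p of 0.05, and 0 at an unadjusted p under 0.05), against 0.0303% and 4.58% of all genes. Their median log2 difference was 0.04, and groups without overlap occurred for 3 of the 32, against 10.4% of all genes.

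Other caspases gave small positive differences with wide intervals in 4 of 4 measured genes, at a median log2 difference of 0.17. Casp14, of skin cornification, differed by 0.21, Casp4, which senses bacterial lipopolysaccharide, by 0.17, Casp1, the inflammasome protease, by 0.17, and Casp12, of the endoplasmic reticulum, by 0.10. For Casp1 the 95% interval was -0.66 to 0.996, and its signal spanned 73.3 to 176.1 in Harlequin and 59.0 to 145.1 in controls. Such intervals hold changes of either sign. They are not limits of detection, since a call needed an adjusted p under 0.05 over all genes tested.

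In the list of inhibitors of apoptosis (IAPs) and their antagonists, 6 of 6 genes were measured, with a median of 0.07. Birc6, a large IAP with ubiquitin ligase activity, read 1212.2, 1355.1 and 1384.3 in Harlequin and 1439.8, 1583.0 and 1406.7 in controls (log2 difference -0.16, limma adjusted p = 0.981). Htra2, a mitochondrial protease that binds IAPs as Diablo does, read 444.9, 450.7 and 441.3 in Harlequin and 389.9, 341.9 and 432.8 in controls (0.20, limma adjusted p = 0.981). In these 2 of 6 genes the groups did not overlap, against 10.4% of all genes tested, with Birc6 lower and Htra2 higher in Harlequin. Control replicate 2 was the lowest array for Htra2 and the highest for Birc6, and differences without it are not given. Birc5 (survivin, which also acts in mitosis) and Birc3 (cIAP2) differed by 0.29 each and overlapped.

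In the death receptor pathway 8 of 12 listed genes were tested, with a median of -0.004. Cflar, the FLIP protein that holds caspase 8 in check, differed by -0.25 (95% interval -0.60 to 0.11), the adaptor Tradd by -0.17, the ligand Tnfsf10 (TRAIL) by 0.24 and the adaptor Fadd by 0.10. All 4 overlapped between the genotypes, as Casp8 did.

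Among 10 caspase substrates and effectors, all measured, the median was 0.02. Xkr8, a lipid scramblase that caspases switch on, differed by -0.28, the kinase Pak2 by -0.10, the lamin Lmnb1 by 0.19 and the microfilament protein Gas2 by 0.15. Pak2 was the 1 gene of these 10 without overlap, against 10.4% of all genes tested. It read 809.5, 823.0 and 801.2 in Harlequin and 868.1, 827.0 and 911.7 in controls.

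In the AIF route, 5 of 6 genes were measured and Aifm1 was the 1 that passed. The histone H2ax, a partner of AIF in DNA fragmentation, read 1301.9, 1495.2 and 1221.0 in Harlequin and 1237.1, 948.1 and 1083.2 in controls, a log2 difference of 0.30 (95% interval -0.002 to 0.60, limma adjusted p = 0.981). The groups overlapped at Harlequin replicate 3 and control replicate 1. For H2ax control replicate 2 was the lowest array, and the difference without it is not given. The nuclease Mif differed by 0.05 and Chchd4, which works with AIF in mitochondrial import, by -0.03.

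**Figure D3:**
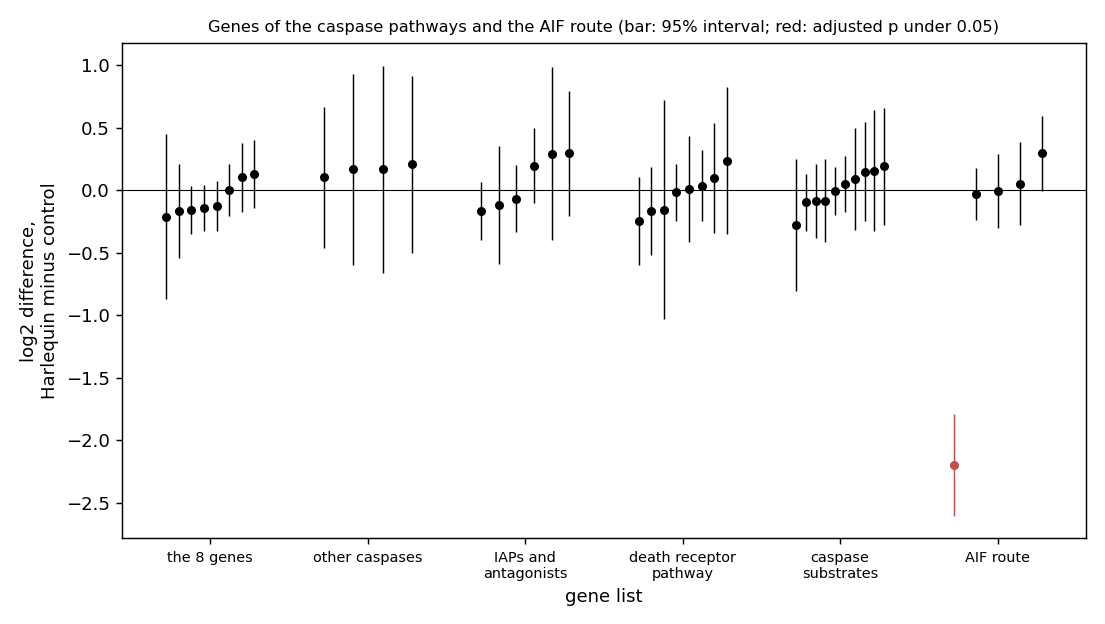
Log2 difference, Harlequin minus control, of each tested gene by list, with 95% limma intervals, and with genes at an adjusted p under 0.05 in red. Aifm1, at -2.20 in the AIF route, is the red point, and the interval of every other gene drawn includes 0.

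Of the 8 genes, Cycs had the smallest unadjusted p, and its profile over the 6 arrays was most like those of Ciao2a (Pearson r = 0.9901), Plpbp (0.9886) and Zcchc9 (0.9875) among all genes tested. With 6 arrays, 107 genes had an r above 0.9 with Cycs. These correlations describe 6 arrays that share the same scaling, and none of the 3 genes was chosen for its function.

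**Figure D4:**
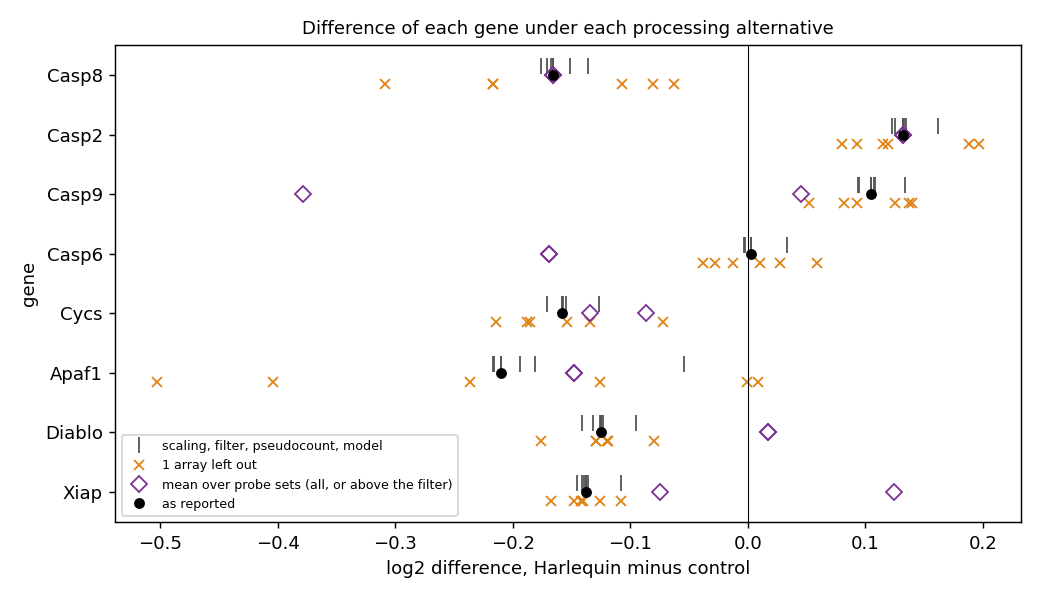
Log2 difference of each of the 8 genes as reported (black), under other scalings, filters, pseudocounts and variance models (grey ticks), with 1 array left out (orange crosses) and as the mean over probe sets (open diamonds). Cycs, Casp8 and Casp2 keep their sign in every setting drawn, while Casp6, Casp9, Apaf1, Diablo and Xiap have at least 1 setting on the other side of 0.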

How the data were processed

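Total RNA of 6 mice was labelled and hybridized on Affymetrix arrays, per the labels' protocols. Each deposited array holds 45101 probe set intensities on a linear scale. The authors' software is not given in the sources used here. The mean without the lowest and highest 2% was 500 on every array, as after scaling by 1 factor, which leaves intensity-dependent differences in place. The number of arrays limits the precision.

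Values were analysed as log2(signal + 16), which understates changes of dim genes. Control probe sets (64) were left out. Gene names came from the platform annotation, with 0 symbols changed against RefSeq, and 34945 probe sets name 1 gene. Each gene was represented by its probe set with the highest mean, kept above the 40th percentile (a signal of 61.1), which left 13219 genes. The genotypes were compared by limma 3.58.1 under R 4.3.3, fitting an intensity trend, two-sided, with Benjamini-Hochberg adjustment over all genes, and again over 27022 single probe sets. Intervals cover 95%. The fit was also run on simulated data, whose outcome is not given here and is not used for any result. Figures used matplotlib 3.10.9. The samples were grouped by their titles.

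The 8 genes, the pathway and marker lists and the tests were chosen with earlier results of these data known. Named genes were the 8, Aifm1, up to 4 genes per pathway list with the smallest unadjusted p, and the 3 profiles most like the member with the smallest p. Pidd1 and Cradd were named after their values were seen. Marker lists for immature neurons, basal, sustentacular, erythroid, B and plasma cells, macrophages and fibroblasts were also summed. The settings tried were a pseudocount of 1 or 64, the filter removed or raised to the 60th percentile, quantile and median scaling, other variance models, array weights, means over probe sets, probe sets ending in _s_at and _x_at left out, a replicate block, and fits that left out 1 array each. The mean over probe sets above the filter was added after seeing the data.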

Additional observations from a re-analysis of the deposited data

How the results depend on the processing

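The count of changed genes among the 8 was 0 in every alternative run. The count of changed probe sets of these genes, among those above the filter of each setting, was 0 in every alternative that could be run on single probe sets, which leaves out the means over probe sets. Of the 8 genes, only Cycs reached an unadjusted p under 0.05 in any setting, without control replicate 1. In that setting 702 of the 13219 genes tested did. The number of changed genes over the whole array was 4 as reported, 0 without an intensity trend and 0 with the replicate block, and between 0 and 3 with 1 array left out (over the same 13219 genes). Aifm1 kept its direction throughout, at -2.20 (adjusted p = 0.0887) without the trend and -2.20 (adjusted p = 0.0605) with the replicate block, and between -2.40 and -2.08 with 1 array left out. The labels do not state that equal replicate numbers pair mice, and deviations of same-numbered arrays correlated at -0.237, -0.03 and 0.058, so the block was not used as the main design. Casp6 lay on the other side of 0 under quantile normalization (-0.003), array weights (-0.002), the mean over probe sets (-0.169) and the mean over probe sets above the filter (-0.169), and ranged from -0.038 to 0.059 with 1 array left out. Averaging over all probe sets turned Casp9 (-0.378), Diablo (0.017) and Xiap (0.124), and over those above the filter Diablo alone among these (0.017). Apaf1 ranged from -0.503 to 0.009 with 1 array left out. The intervals given are not limits of detection. With 3 arrays per genotype, changes larger than they hold could also be missed at the adjusted p used.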

Other observations

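In the marker lists of other cell types 0 genes passed in limma over all genes tested, and an unadjusted p under 0.05 was reached by 3 erythroid, 2 macrophage, 2 fibroblast, 1 basal cell and 1 B and plasma cell gene. Erythroid genes had a median log2 difference of 1.47 (3 of 3 tested genes positive, summed signal 2848 to 3709 in Harlequin and 637.7 to 1946 in controls). Of 6 listed erythroid genes 3 were tested. Hba-a1, below the filter, had a mean of 12.9 in Harlequin and 37.8 in controls and differed by -0.75. Neutrophil genes had a median of 0.82 (5 of 5 positive), B and plasma cell genes 0.44 (4 of 4 tested) and macrophage genes 0.29 (4 of 6). In the erythroid, neutrophil and macrophage lists control replicate 2 had the lowest summed signal, and medians without it were not computed. Fibroblast genes had a median of -0.55 (5 of 5 negative). Basal cell genes had a median of -0.23 over 4 genes, immature neuron genes 0.03 over 5, mature neuron genes 0.04 over 5 and sustentacular genes -0.02 over 4. No listed marker that was tested read 0 on any array.

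Xiap and Aifm1 both lie on the X chromosome, with 10 tested genes between them in RefSeq order (GRCm38.p6). Of these 10, 0 passed in limma at an adjusted p of 0.05 and 0 had an unadjusted p under 0.05. Their log2 differences ran from -0.40 to 0.35, with a median of 0.001 and 5 of 10 negative. The groups did not overlap for 1 of the 10, against 10.4% of all genes tested. It was Apln, a peptide hormone gene, named after its value was seen. Over the 407 tested genes of the X chromosome the median was -0.03. A difference in strain background near Aifm1 and the genotype cannot be told apart.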
